A study of Mus musculus with 4 samples.

Results

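The histone genes of the mouse were examined for RNA polymerase II (Pol II) in the heart, kidney, liver and lung. They were chosen by symbol alone, as every protein-coding gene whose symbol begins with H1f, H2ac, H2bc, H3c, H4c, H2az, H2ax or H3f, or with an older Hist symbol, and 74 of 21887 protein-coding genes met this rule. Of these, 63 carry the symbols of the clustered, replication-dependent genes, with 6 for H1, 17 for H2A, 16 for H2B, 12 for H3 and 12 for H4. The other 11 are encoded elsewhere and are called single here by symbol alone. They are H1f0, H1f7, H1f8, H1f10, H2ax, H2az1, H2az2, H3f3a, H3f3b, H3f3c and H3f4. In the heart H3f4 shared a called region with H2aw, a histone gene outside the rule.

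The organs came from 2 C57BL/6 mice, and the sources used here do not give their age or sex. They were frozen, crosslinked and sheared with the PIXUL sonicator, and chromatin was precipitated with the 4H8 antibody, which binds the repeats at the C-terminal end of the Pol II catalytic subunit. A single list of called regions was deposited for each organ, heart, kidney, liver and lung, and the sources used here do not say whether a list joins both mice. There was therefore no replicate error for any value, no test was made, and every comparison below describes 4 lists.

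Core histones H2A, H2B, H3 and H4 form the nucleosome, and H1 binds the linker DNA between nucleosomes. The clustered genes are short, lack introns in most cases and are transcribed mainly during S phase, into mRNAs that end in a stem-loop instead of a poly(A) tail. Replacement variants such as H3.3 and H2A.Z are transcribed outside S phase as well, from genes that often have introns, and supply resting cells with histones. In adult mice most cells of these organs are not dividing.

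The lists rested on 9880184 tags in the heart, 16589890.5 in the kidney, 20058183 in the liver and 13296938 in the lung, and held 81887, 88200, 61956 and 101051 regions in that order. A gene's covered share is the part of its annotated span that lies inside called regions, and a gene is called covered where this share is at least 50%. Tags per kb is the tag count of a region, scaled by the authors to 10000000 tags in the library, divided by the length of the region. All 4 markers fixed for an organ (for example Myh6 in the heart, Umod in the kidney, Alb in the liver and Nkx2-1 in the lung) were covered in that organ's own list. Of the markers of other organs, Ager was covered in all 4 lists and Sftpc, a surfactant gene of lung, was 74.8% covered in the liver. Of 4 blood and immune cell markers, Lyz2 was covered in the lung (75.2%), and none was in the other 3 lists. None of 4 germ line markers was covered in any list. In whole organs, fewer cells of a type and less polymerase per cell cannot be told apart.

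Most clustered histone genes lay inside called Pol II regions in each of the 4 organs. In the heart 39 of the 63 were covered (61.9%), in the kidney 41 (65.1%), in the liver 50 (79.4%) and in the lung 42 (66.7%). Of all protein-coding genes, 16.1% were covered in the heart, 21.1% in the kidney, 21.9% in the liver and 15.1% in the lung. Histone genes are small targets, since 59 of the 74 span at most 1 kb. Among the 1518 other protein-coding genes of that size, 3.1% were covered in the heart, 3.23% in the kidney, 3.1% in the liver and 2.5% in the lung. That comparison holds many genes of restricted expression, because 49.7% of all genes of at most 1 kb are olfactory receptor genes. Of the single genes, 7 of 11 were covered in the heart, 8 in the kidney, 7 in the liver and 5 in the lung. Liver had the most tags and the most covered clustered genes, and heart had the fewest of both, while kidney had more tags than lung and 1 covered clustered gene fewer. The part of depth in these counts was not tested. When the upper 50% of each list by the caller's score was kept, 21 clustered genes were covered in the heart, 38 in the kidney, 13 in the liver and 28 in the lung, and 4, 5, 4 and 2 single genes.

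**Figure D1:**
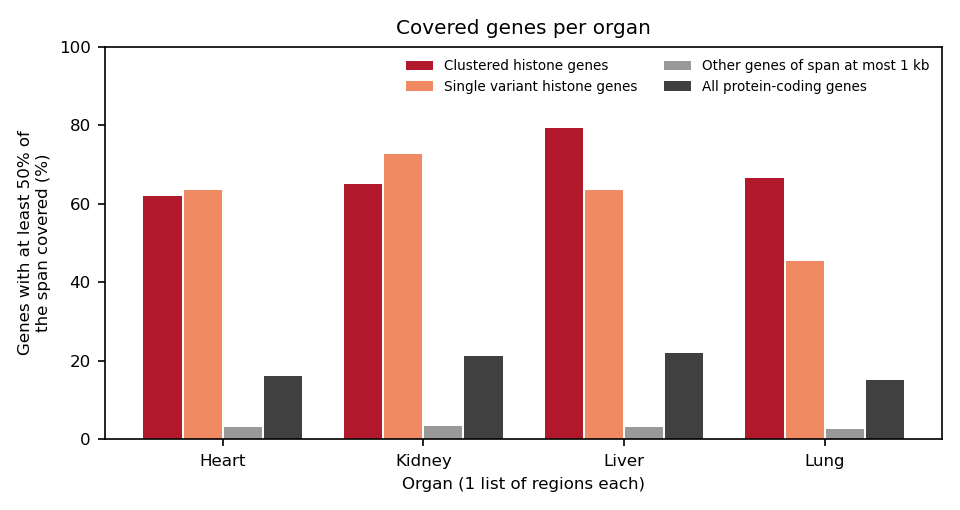
Share of genes with at least 50% of their span inside called regions (%), by organ, with 1 list per organ and hence no error bars. Bars show the 63 clustered histone genes, the 11 single ones, the 1518 other genes of span at most 1 kb and all 21887 protein-coding genes. The clustered genes stood between 61.9% in the heart and 79.4% in the liver.

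The cover recurred over the same genes. Of the clustered genes, 31 of 63 were covered in all 4 lists (49.2%), against 8.04% of all protein-coding genes and 1.98% of the other genes of at most 1 kb. Of the single genes, 5 of 11 were covered in all 4 lists, namely H1f0, H2ax, H2az1, H3f3a and H3f3b. At the other end, 11 clustered genes and 2 single genes, H1f10 and H3f3c, were covered in no list, against 66.9% of all genes. No region at all touched 7 clustered genes (H2ac1, H2bc1, H2ac23, H2bc23, H2ac24, H4c17 and H4c18) and 1 single gene (H1f10) in any list, against 28% of all genes and 95% of the other genes of at most 1 kb. A region touched at least 1 base of 53 clustered genes in the heart, 51 in the kidney, 55 in the liver and 51 in the lung, where the shares of all protein-coding genes so touched were 57%, 61%, 56.8% and 60.3%. The clustered genes that were covered in some lists and not in others number 2 with 1 list, 11 with 2 lists and 8 with 3 lists.

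All 5 clustered families took part. Of the 6 linker histone H1 genes, 4 were covered in the heart, 5 in the kidney, 6 in the liver and 5 in the lung. Of the 17 H2A genes the counts were 10 in the heart, 10 in the kidney, 14 in the liver and 11 in the lung. The 16 H2B genes gave 9, 11, 10 and 10 in the same order of organs. H3 had 7, 7, 10 and 8 of 12, and H4 had 9, 8, 10 and 8 of 12. The H2B genes were the only family with more genes covered in the kidney than in the liver.

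**Figure D2:**
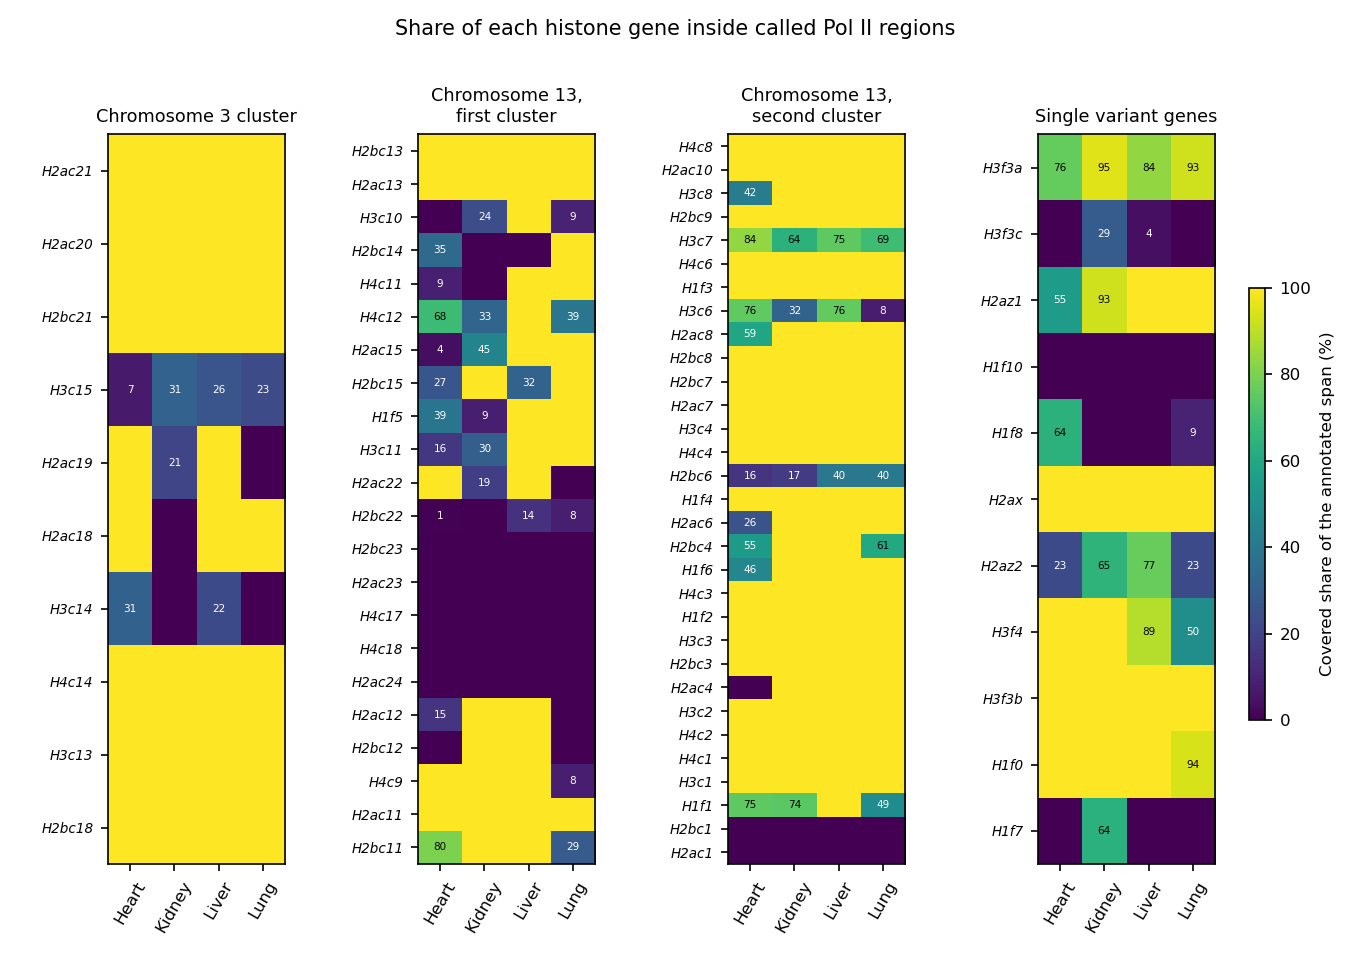
Covered share of the annotated span (%, colour) of all 74 histone genes (rows, in genome order within each panel) in the 4 organ lists (columns); shares strictly between 0 and 100 are printed. Unbroken full cover runs through much of the second chromosome 13 cluster, and the block from H2bc23 to H2ac24 in the first chromosome 13 cluster is at 0 in all 4 lists.

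The clustered genes fall into 3 groups of neighbours (mm10 coordinates). The first lies on chromosome 3 from 96219885 to 96270192 (50.3 kb, 10 genes), the second on chromosome 13 from 21715711 to 22043658 (328 kb, 22 genes) and the third on chromosome 13 from 23531044 to 23934913 (404 kb, 31 genes). On chromosome 3, 8 of 10 genes were covered in the heart, 6 in the kidney, 8 in the liver and 7 in the lung. In the first chromosome 13 cluster, 7 of 22 were covered in the heart, 8 in the kidney, 14 in the liver and 9 in the lung. In the second, 24 of 31 were covered in the heart, 27 in the kidney, 28 in the liver and 26 in the lung. The first chromosome 13 cluster thus had the lowest covered share in every list, from 31.8% in the heart to 63.6% in the liver.

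The densest single region of the 3 clusters lay in the chromosome 3 cluster in every list. In the kidney the median density over genes with a region was 28.5 tags per kb in this cluster and 29.4 in the second chromosome 13 cluster. Called regions took up 72.5% of the chromosome 3 cluster's length in the heart, 76.2% in the kidney, 86.9% in the liver and 84.8% in the lung, where the whole lists take up 8.14%, 9.98%, 10.5% and 8.07% of the stated genome size of 2 Gb. At its far end H4c14, H3c13 and H2bc18 were fully covered in all 4 lists by a single region each time. That region ran at 58.2 tags per kb in the heart, 39.9 in the kidney, 44.3 in the liver and 45.6 in the lung, where the median region of the list stood at 20.9, 17.3, 15.2 and 17.6. Among the clustered genes that were fully covered in all 4 lists, these 3 had the highest mean density, 47.0 tags per kb. The value belongs to the region, which the genes share, so they are not separate measurements. At the near end, H2ac21, H2ac20 and H2bc21 were fully covered in all 4 lists, at 58.6 tags per kb in the heart, 28.5 in the kidney, 35.4 in the liver and 29.2 in the lung.

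The promoter of H2bc18, which encodes an H2B, is printed because it belongs to this fully covered group and holds 3 of the 4 motifs searched. It is taken from RefSeq (GRCm38.p6, the assembly behind mm10) at chr3:96269450-96269729 on the plus strand, as 250 bases before the start of the gene and 30 from it. Capitals mark matches, on either strand, to TATAA, the core of the TATA box, to CCAAT, the box bound by NF-Y, to ATTTGCAT, the octamer bound by Oct-1, and to GGGCGG, the GC box bound by Sp1.
H2bc18: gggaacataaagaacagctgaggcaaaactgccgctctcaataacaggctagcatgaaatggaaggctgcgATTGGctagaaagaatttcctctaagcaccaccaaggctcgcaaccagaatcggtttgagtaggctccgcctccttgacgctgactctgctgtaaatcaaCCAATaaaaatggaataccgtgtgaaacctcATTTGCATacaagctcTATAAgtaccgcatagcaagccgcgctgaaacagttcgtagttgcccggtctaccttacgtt
In this window the octamer begins 48 bases before the start and TATAA 32 bases before it, and CCAAT occurs once on each strand.

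Between these ends lie 2 pairs of near copies, H3c15 with H3c14 and H2ac19 with H2ac18, in mirror order. A region of 7.001 kb in the heart and 7.015 kb in the liver joined H2ac19 to H2ac18, at 69.7 tags per kb in the heart and 57.2 in the liver. The heart region was denser than 99.95% of the regions in its list. In the lung a 6.07 kb region of 43.0 tags per kb covered H2ac18 and began at 96240380, just past the last base of H2ac19 at 96240374. In the kidney a region from 96240448 to 96245468 lay between the genes at 56.1 tags per kb and touched neither, and a second region of 15.7 tags per kb covered 21.0% of H2ac19. All 4 lists thus hold a dense region between the 2 genes, and the calls on the genes themselves differ by where that region ends. H3c15 was covered to 7.1% in the heart, 31.4% in the kidney, 26.3% in the liver and 23.3% in the lung. H3c14 was covered to 30.9% in the heart, 22.4% in the liver and 0% in the kidney and lung. A stretch of 701 bp over H3c15 (96238683 to 96239383) and another of 691 bp over H3c14 (96246453 to 96247143) had no region in any list, although regions lay on both sides in each. The promoter window of H3c15 was at 0% in all 4 lists, and that of H3c14 at 6% in the lung and 0% in the other 3.

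**Figure D3:**
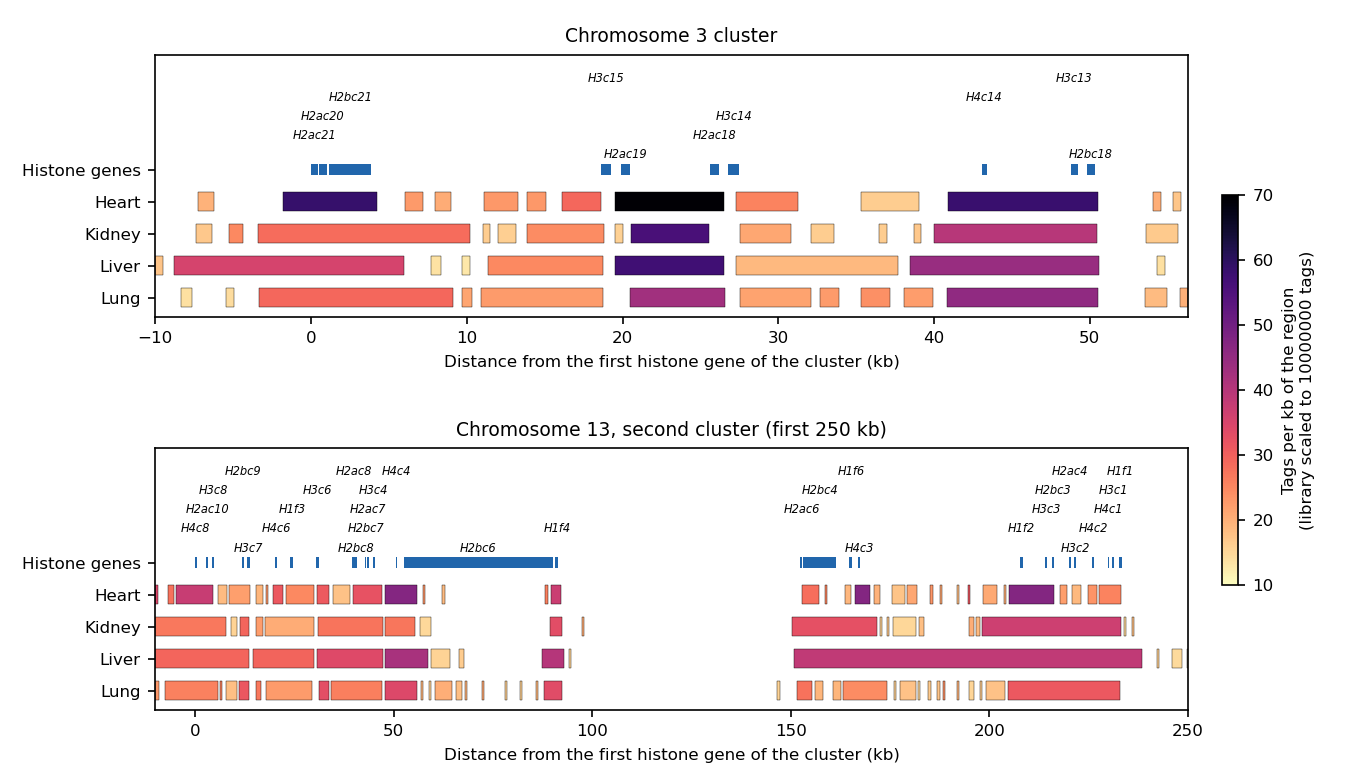
Called regions in each organ list (rows) along the chromosome 3 cluster (upper panel) and the first 250 kb of the second chromosome 13 cluster (lower panel), against distance from the first histone gene (kb); blue boxes are histone genes and colour gives tags per kb of the region. The same narrow breaks recur in all 4 lists, and in the liver 1 region of 87.6 kb takes the place of several shorter ones at the right of the lower panel.

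In the second chromosome 13 cluster, called regions merged many histone genes, most of all in the liver. Of its 31 genes, 22 were covered in all 4 lists. In the liver a single region from 23681883 to 23769503 (87.6 kb) at 38.5 tags per kb held 13 histone genes, H2ac6, H2bc4, H1f6, H4c3, H1f2, H3c3, H2bc3, H2ac4, H3c2, H4c2, H4c1, H3c1 and H1f1, together with Hfe, the haemochromatosis gene. With 14 protein-coding genes it ranked 2 by gene number among the regions of the liver list, in which 1.34% of regions over a gene held 3 or more. In the kidney a region from 23729252 to 23764222 (35.0 kb) held the 9 genes from H1f2 to H1f1 at 36.7 tags per kb. In the lung a region from 23735794 to 23764030 (28.2 kb) touched the same 9 at 31.3 tags per kb. It ended inside H1f1, which was covered in the heart, kidney and liver but not in the lung. In the heart these genes lay in shorter regions, the longest 11.4 kb over H1f2, H3c3 and H2bc3 at 47.4 tags per kb. H2ac4 had no region in the heart, although it was fully covered in the other 3 lists.

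In the heart the region with the most histone genes lay further up the cluster, from 23570891 to 23578024 (7.13 kb), over H2ac8, H2bc8, H2bc7, H2ac7 and H3c4 at 32.4 tags per kb. The same 5 genes lay together in a region of kidney at 27.6, of liver at 34.0 and of lung at 26.1 tags per kb, and H3c6 was touched by that region too in the kidney and liver. Each of the 4 regions over this group ended within a short distance of the others, at 23578024 in the heart, 23578276 in the kidney, 23578346 in the liver and 23578173 in the lung. The next region, over H4c4, began at 23578957 in the heart, 23578882 in the kidney, 23578873 in the liver and 23578953 in the lung. A break of 526 bp with no histone gene in it was therefore common to all 4 lists. The H4c4 region stood at 47.1 tags per kb in the heart, 27.3 in the kidney, 42.0 in the liver and 34.2 in the lung. H1f4, a linker histone gene, was fully covered in all 4 lists, at 37.0 tags per kb in the heart, 33.4 in the kidney, 40.02 in the liver and 33.6 in the lung.

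Promoters of 4 genes of this cluster are printed because they stand for the H2A, H3, H4 and H1 families and because their promoter windows are fully covered in all 4 lists, with the same marking and source. They lie at chr13:23571191-23571470 on the minus strand (H2ac8), chr13:23752095-23752374 on the plus strand (H3c2), chr13:23581318-23581597 on the plus strand (H4c4) and chr13:23622529-23622808 on the minus strand (H1f4).
H2ac8: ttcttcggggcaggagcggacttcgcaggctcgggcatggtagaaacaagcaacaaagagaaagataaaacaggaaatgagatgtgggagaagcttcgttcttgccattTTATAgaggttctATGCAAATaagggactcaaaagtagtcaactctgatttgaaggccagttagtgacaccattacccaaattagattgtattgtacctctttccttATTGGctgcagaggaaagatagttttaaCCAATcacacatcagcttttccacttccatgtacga
H3c2: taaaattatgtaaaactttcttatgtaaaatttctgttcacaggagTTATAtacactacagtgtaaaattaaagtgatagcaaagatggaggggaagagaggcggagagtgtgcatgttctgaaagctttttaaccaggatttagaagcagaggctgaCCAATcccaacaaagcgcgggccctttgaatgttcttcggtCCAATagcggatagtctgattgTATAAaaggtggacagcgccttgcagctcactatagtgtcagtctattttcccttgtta
H4c4: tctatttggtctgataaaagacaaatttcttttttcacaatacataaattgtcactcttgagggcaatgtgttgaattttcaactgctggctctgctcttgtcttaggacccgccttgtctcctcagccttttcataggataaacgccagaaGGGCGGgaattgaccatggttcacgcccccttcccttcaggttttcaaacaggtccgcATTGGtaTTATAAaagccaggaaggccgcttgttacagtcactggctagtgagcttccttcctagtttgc
H1f4: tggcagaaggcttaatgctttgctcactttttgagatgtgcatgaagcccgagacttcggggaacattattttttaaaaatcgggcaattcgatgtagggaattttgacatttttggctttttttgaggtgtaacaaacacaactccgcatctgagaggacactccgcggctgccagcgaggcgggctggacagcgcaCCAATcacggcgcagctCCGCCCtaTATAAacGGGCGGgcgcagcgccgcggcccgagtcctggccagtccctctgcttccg
TATAA lies on the gene's own strand 29 bases before the start in H3c2, 32 in H4c4 and 27 in H1f4, and in H2ac8 it lies on the other strand 141 bases before the start. The first bases of the H2ac8 window reach into H2bc8, which starts 180 bp away and is read in the opposite direction.

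Beyond these genes the cluster was not evenly covered. H2bc6, which encodes an H2B, has an annotated span of 37455 bp and was covered to 15.6% in the heart, 17.3% in the kidney, 39.7% in the liver and 39.97% in the lung. Both of its annotated promoter windows were fully covered in all 4 lists, so its place among the uncovered genes rests on the long span. A stretch of 48.5 kb from 23628966 to 23677479 held no region in any list and no histone gene. H2ac1 and H2bc1, the testis histone pair at the far end of the cluster, had no region in any list. H1f6, the testis-specific H1t gene, was covered to 46.4% in the heart and fully in the kidney, liver and lung. Its region in the kidney and in the liver also held H4c3, H2bc4 and H2ac6, and in the lung H4c3, so its own level cannot be told apart from theirs. In the heart the region that reached it stood at 18.96 tags per kb, close to the list median of 20.9.

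Between clustered histone genes lie 10 protein-coding genes outside the naming rule, among them H4bc24, whose symbol is of histone form. Of these 10, 1 was covered in the heart, 3 in the kidney, 5 in the liver and 1 in the lung. Hfe, which lies next to H4c3, was covered to 57.9% in the heart, 66.2% in the kidney, 100% in the liver and 71.1% in the lung. Slc17a1, Slc17a2, Slc17a3 and Slc17a4, phosphate and organic anion carrier genes in a row between H1f1 and H2bc1, had no region in the heart or lung. Slc17a3 was covered to 100% in the kidney and 97.0% in the liver, and Slc17a2 to 22.4% in the kidney and 100% in the liver. These genes account for a part of the called length of the second chromosome 13 cluster, which was 24.5% in the heart, 50.8% in the kidney, 69.2% in the liver and 30.8% in the lung.

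The first chromosome 13 cluster was the most broken. Called regions took up 9.17% of it in the heart, 13.2% in the kidney, 14.8% in the liver and 10.7% in the lung, a little above the shares of the whole genome given for the chromosome 3 cluster. Only H2bc13, H2ac13 and H2ac11 of its 22 genes were covered in all 4 lists. H2bc13 and H2ac13 shared regions of 20.9 tags per kb in the heart, 18.1 in the kidney, 19.7 in the liver and 15.9 in the lung. The median density over the genes of this cluster with a region was 20.9 tags per kb in the heart, 18.7 in the kidney, 20.1 in the liver and 18.5 in the lung. The second chromosome 13 cluster had medians of 32.4, 29.4, 38.5 and 27.8 tags per kb in the same order, and the chromosome 3 cluster 58.4, 28.5, 39.9 and 36.1. The group at the end of the cluster, H2ac12, H2bc12, H4c9, H2ac11 and H2bc11, lay in 1 region in the kidney and 1 in the liver, at 26.1 and 26.2 tags per kb, while in the lung a 2.001 kb region of 20.8 tags per kb covered H2ac11 alone in full. H1f5, another linker histone gene, was covered to 39.0% in the heart, 8.6% in the kidney and fully in the liver and lung.

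**Figure D4:**
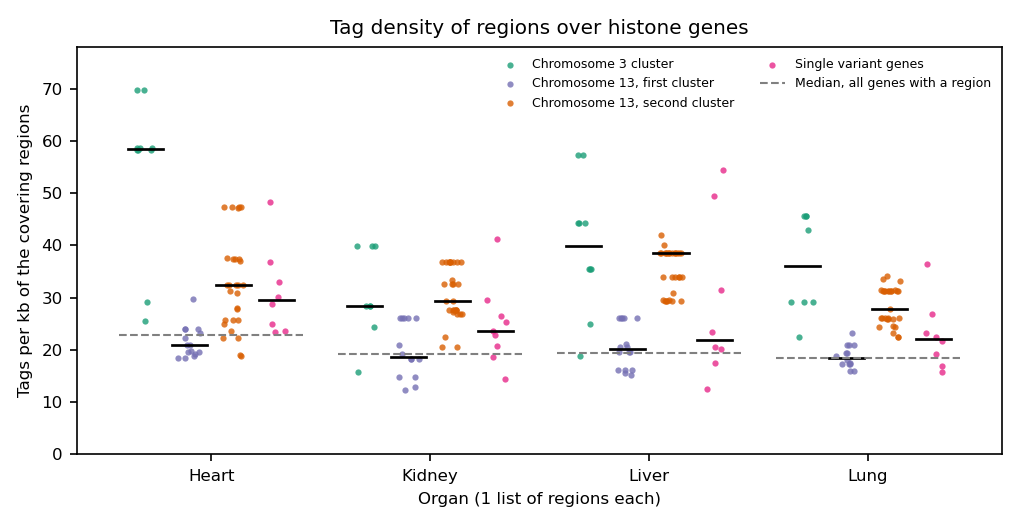
Tags per kb of the regions over each histone gene with a region, by organ list and by gene group (points, with genes in 1 region sharing a value); black bars are medians of a group and dashed lines the median over all protein-coding genes with a region. The chromosome 3 genes reach 69.7 tags per kb in the heart, and the medians of the first chromosome 13 cluster lie near the dashed lines.

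Over all 3 clusters the median density of clustered genes with a region was 29.1 tags per kb in the heart (53 genes), 27.6 in the kidney (51), 34.0 in the liver (55) and 26.1 in the lung (51). Single genes with a region had medians of 29.5 in the heart (8 genes), 23.6 in the kidney (9), 21.9 in the liver (8) and 22.01 in the lung (8). All protein-coding genes with a region had medians of 22.8, 19.1, 19.4 and 18.4. Taken per gene, the medians of clustered genes stood higher than those of single genes in the kidney, liver and lung and lower in the heart. Clustered genes in 1 region share its value, so large regions weigh more in these medians. With each region over clustered genes counted once, the medians were 25.4 in the heart, 25.2 in the kidney, 25.5 in the liver and 20.4 in the lung. The medians of single genes were taken per gene, so they cannot be set beside these values per region. Clustered genes were touched by 35 regions in the heart, 20 in the kidney, 20 in the liver and 35 in the lung, of which 14, 13, 14 and 14 touched at least 2 of them. The median length of these regions was 2.55 kb in the heart, 4.10 in the kidney, 8.21 in the liver and 2.67 in the lung, where the median of all regions was 0.73, 0.783, 0.951 and 0.696 kb.

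The longest run of histone genes without a Pol II region lay inside the first chromosome 13 cluster, over H2bc23, H2ac23, H4c17, H4c18 and H2ac24. These are a run of H2A, H2B and H4 genes from 21806412 to 21833475, and none was touched in any list. From 21790074 to 21850824 the 4 lists held a single region, a stretch of 0.5 kb between H4c17 and H4c18 in the lung. The promoters of H4c17 (chr13:21811496-21811775, plus strand) and H4c18 (chr13:21832168-21832447, minus strand) are printed because they are almost the same letters, moved by 1 base.
H4c17: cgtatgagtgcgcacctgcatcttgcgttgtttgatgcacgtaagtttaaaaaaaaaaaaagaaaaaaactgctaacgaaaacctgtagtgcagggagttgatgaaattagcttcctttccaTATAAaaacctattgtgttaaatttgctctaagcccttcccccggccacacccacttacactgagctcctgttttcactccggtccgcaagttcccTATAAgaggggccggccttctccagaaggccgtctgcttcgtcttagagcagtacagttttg
H4c18: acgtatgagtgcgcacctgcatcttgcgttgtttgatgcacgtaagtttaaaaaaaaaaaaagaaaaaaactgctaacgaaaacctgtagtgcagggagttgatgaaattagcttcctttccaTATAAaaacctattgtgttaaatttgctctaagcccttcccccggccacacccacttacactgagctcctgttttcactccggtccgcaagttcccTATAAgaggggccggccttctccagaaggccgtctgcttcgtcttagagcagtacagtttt
Their 300 base promoter windows share an unbroken stretch of 285 bases. H3c14 and H3c15 share 231 bases and H2ac18 and H2ac19 share 219, while H4c11 and H4c12 share 72. With reads of 50 bases, a 50-base word that occurs in 2 promoters cannot be placed by its letters alone. The sources used here do not say what was done with tags that match several places.

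Shared words were counted over all promoter windows, of which 69 belong to 68 of the 74 histone genes. A shared 50-base word was found in 11 of 59 windows of clustered genes (18.6%), in 0 of 10 windows of single genes and in 8.97% of all windows. In 9 clustered genes at least 50% of the words were shared, namely H3c15, H2ac19, H2ac18, H3c14, H2bc23, H2ac23, H4c17, H4c18 and H2ac24. Of these 9, 2 were covered over the span in the heart, 0 in the kidney, 2 in the liver and 1 in the lung, and 5 had no region in any list. Read at the promoter window, H2ac19 and H2ac18 were covered in all 4 lists, at the least to 59% and 74% in the kidney. The windows of the other genes of the 9 were covered to 0% to 6%. Of the 47 clustered genes with no shared word, 31 were covered in the heart, 36 in the kidney, 41 in the liver and 35 in the lung, and 2 had no region in any list, H2ac1 and H2bc1. The closest match of H2bc23 and H2ac23 was the promoter of a neighbouring gene that the table lists as H4bc24, which was at 0% in all 4 lists too. Sequence outside the promoter windows was not searched, so a gene with no shared promoter word may still share sequence with another gene. The part of shared sequence in the missing regions was not tested.

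**Figure D5:**
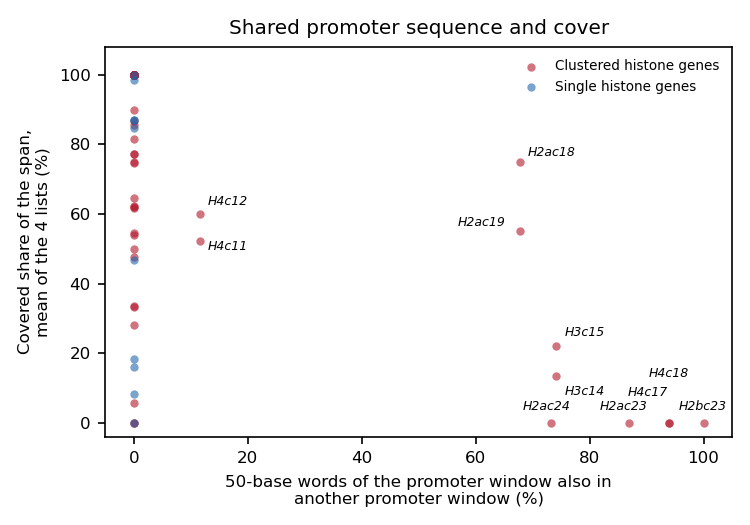
Covered share of the span averaged over the 4 lists (%) against the share of 50-base words of the promoter window that also occur in another promoter window (%), for the 58 clustered and 10 single histone genes with a promoter in the table. Genes with no shared word run from 0 to 100% covered, and the 9 genes above 50% shared words lie at or below 75% covered, 5 of them at 0.

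Histone H2A and H2B genes are often arranged head to head around a common promoter. Among the genes with a matched promoter, and hence a known strand, 9 such pairs have starts 164 to 281 bp apart, with a median of 180. H2bc21 and H2bc4, which lie beside H2ac20 and H2ac6, had no matched promoter and are not counted. Over these 9 pairs and 4 lists, both genes were covered in 18 of 36 cases, 1 of the 2 in 5 cases and neither in 13. Both genes of H2bc13 with H2ac13, H2ac8 with H2bc8 and H2bc7 with H2ac7 were covered in all 4 lists. H2ac12 with H2bc12 were both fully covered in the kidney and liver, and reached 15.3% and 0% in the heart and 0% each in the lung. H2ac15 with H2bc15 had 1 gene covered in the kidney and in the liver, a different one each time. The called region began inside H2ac15 in the kidney and ended inside H2bc15 in the liver.

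Read at the promoter window instead of the span, 42 of 59 windows of clustered genes were at least 50% covered in the heart, 44 in the kidney, 49 in the liver and 46 in the lung. The windows of all protein-coding genes were so covered in 40.5%, 46.3%, 46.1% and 40.8% of cases. Of 10 windows of single genes, 7 were covered in the heart, 6 in the kidney, 5 in the liver and 5 in the lung. The promoter letters of the families differed. CCAAT occurred in 86.4% of clustered windows, 60% of single ones and 38.2% of all windows, and within the clusters in every H1, H2A, H2B and H3 window but in 3 of 11 H4 windows. TATAA occurred in 77.97% of clustered windows, 30% of single ones and 21.9% of all. On the gene's own strand and 40 to 20 bases before the start, it occurred in 25.4% of clustered windows, 20% of single ones and 4.09% of all. ATTTGCAT occurred in 6 of 17 H2A windows and 7 of 15 H2B windows and in no H1, H3 or H4 window, which made 22.03% of clustered windows against 1.66% of all. The windows of head-to-head H2A and H2B genes overlap, so the same match can be counted in both families. Both windows held ATTTGCAT in H2ac8 with H2bc8, H2ac12 with H2bc12 and H2ac1 with H2bc1. GGGCGG occurred in 39.0% of clustered windows, 50% of single ones and 46.2% of all. Matches were taken on both strands, and no 2 different motifs overlapped. A motif overlapped its own match on the other strand in 5 windows (TATAA in H4c4 among them). Each match is a description of the letters only.

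Among the single genes, H3f3b and H3f3a, which both encode the replacement histone H3.3, were covered in all 4 lists. H3f3b (chromosome 11, 116021961 to 116026039) was fully covered in each, at 48.4 tags per kb in the heart, 41.2 in the kidney, 49.5 in the liver and 36.5 in the lung. These were the highest values of any single gene in the heart, kidney and lung. Its regions were 16.3 to 21.0 kb long and also touched the neighbouring gene Unk. H3f3a (chromosome 1, 180802560 to 180813605) was covered to 76.2% in the heart, 95.02% in the kidney, 83.8% in the liver and 92.8% in the lung, at 28.8, 23.6, 23.3 and 22.3 tags per kb. Its main region in each list touched no other gene. H3f3c, an H3 gene of 1037 bp, was touched in the kidney (29.0%) and liver (4.2%) only.

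H1f0 encodes H1.0, the linker histone that accumulates in cells that have stopped dividing. It was fully covered in the heart, kidney and liver and to 94.1% in the lung. Its density was 36.8 tags per kb in the heart, 26.4 in the kidney, 54.4 in the liver and 26.8 in the lung, with the highest value in the liver. In each list its region also touched Gcat, a neighbouring gene of threonine breakdown, and the signal of the 2 genes cannot be told apart. In the lung the region began inside H1f0, and the promoter window was at 0% there against 100% in the heart, kidney and liver. The promoters of H3f3b (chr11:116024475-116024754, minus strand) and H1f0 (chr15:79027962-79028241, plus strand) are printed as the 2 single genes with the highest density, beside the clustered promoters above.
H3f3b: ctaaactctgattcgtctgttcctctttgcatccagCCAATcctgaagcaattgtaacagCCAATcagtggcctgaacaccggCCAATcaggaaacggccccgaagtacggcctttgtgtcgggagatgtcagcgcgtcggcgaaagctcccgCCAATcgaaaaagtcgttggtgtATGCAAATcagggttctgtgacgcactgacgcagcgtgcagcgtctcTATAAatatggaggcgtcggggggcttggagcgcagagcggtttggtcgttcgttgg
H1f0: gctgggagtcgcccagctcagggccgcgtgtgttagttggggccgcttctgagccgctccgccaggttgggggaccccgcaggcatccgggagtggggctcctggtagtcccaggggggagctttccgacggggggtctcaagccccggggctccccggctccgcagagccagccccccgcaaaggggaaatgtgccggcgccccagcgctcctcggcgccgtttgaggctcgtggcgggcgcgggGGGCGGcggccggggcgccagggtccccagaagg
The H3f3b window holds CCAAT at 4 places, TATAA 27 bases before the start and an octamer on the other strand, whereas the H1f0 window holds only GGGCGG, 4 bases before the start. The start used for H3f3b, 116024504, lies inside its annotated span, which on the minus strand begins at 116026039.

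H2az1 and H2az2 encode the variant H2A.Z. H2az1 was covered to 55.3% in the heart, 92.7% in the kidney and 100% in the liver and lung, at 23.5, 22.8, 17.5 and 21.7 tags per kb. H2az2 was covered to 22.5% in the heart, 65.2% in the kidney, 76.8% in the liver and 22.6% in the lung. It has a span of 17286 bp, and its promoter window was fully covered in all 4 lists. H2ax, which encodes the variant phosphorylated at DNA breaks, was fully covered in all 4 lists at 30.1 tags per kb in the heart, 29.5 in the kidney, 31.4 in the liver and 23.3 in the lung. Its regions also touched the neighbouring gene Dpagt1 in every list and were 25.5, 46.3, 63.4 and 6.91 kb long, so its own signal was not resolved.

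None of the other single genes was covered in all 4 lists. H3f4 was fully covered in the heart and kidney, to 89.0% in the liver and to 49.6% in the lung, just under the limit. All 4 regions also touched Trim17, and the one in the heart also touched the histone gene H2aw. H1f8, the oocyte linker histone, was covered to 64.1% in the heart, 9.4% in the lung and 0% in the kidney and liver. Part of the heart cover came from a region of 61.9 kb that reached in from Plxnd1. H1f7, a testis linker histone, was covered to 63.8% in the kidney by a region of 1.05 kb at 25.3 tags per kb and had no region in the other 3 lists. H1f10, which encodes another linker histone, had no region in any list.

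Histone genes outside the naming rule behaved unevenly. H2aj and H2aw were covered in all 4 lists, from 82.6% to 100%. H2bu2 was fully covered in the heart, kidney and lung and had no region in the liver. H2aw and H2bu2 had the same density in the kidney (29.5 tags per kb) and in the lung (20.9). In the heart H2aw lay in the same region as H3f4, at 32.9 tags per kb, so these values are not separate measurements. Macroh2a1, Macroh2a2 and Cenpa, the centromeric H3 gene, were below 50% in every list.

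Genes that process histone mRNA or bind histone promoters were read in the same way. Of 16 listed, 1 was covered in the heart, 4 in the kidney, 4 in the liver and 1 in the lung, against the 16.1%, 21.1%, 21.9% and 15.1% of all genes. Lsm10, a subunit of the U7 particle that cuts histone pre-mRNA, was fully covered in all 4 lists. Npat, the coactivator of histone loci, was covered to 4.18% in the heart, 14.5% in the kidney, 8.45% in the liver and 7.57% in the lung, over a span of 38739 bp. Slbp, which binds the histone stem-loop, reached 47.2%, 58.8%, 17.1% and 35.4% in the same order. Of 20 histone chaperone and remodeller genes, 3 were covered in the heart, 5 in the kidney, 6 in the liver and 3 in the lung, and Daxx, an H3.3 chaperone, was fully covered in all 4.

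Of 25 genes of S phase and mitosis, 6 were covered in the heart, 8 in the kidney, 7 in the liver and 6 in the lung. The shares of all protein-coding genes were 16.1%, 21.1%, 21.9% and 15.1% in that order. Pcna, the sliding clamp of replication, was fully covered in all 4 lists, and Tk1, Cdk2 and Mcm7 were covered in all 4 as well. Tk1 and Birc5 had the same density in the liver (48.7 tags per kb), so these values are not separate measurements. Mki67, which marks dividing cells, was covered to 3.19% in the heart, 3.62% in the kidney, 0% in the liver and 9.40% in the lung. Ccne1 had no region in any list, and Mcm3 stayed below 1% in each. The median covered share of the 25 genes was 3.19% in the heart, 9.55% in the kidney, 9.72% in the liver and 9.40% in the lung, beside 2.26%, 5.07%, 2.76% and 3.88% over all genes and 100% over the 63 clustered histone genes in every list. These shares are not matched for gene length, and most of the listed genes are longer than a histone gene.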

How the data were processed

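Pol II ChIP-seq regions were analysed for heart, kidney, liver and lung, 1 list per organ. The submitters' processing notes name Bowtie2 2.2.8, HOMER 4.8 and the mm10 build. Per the file headers, the authors called regions with findPeaks in histone style, joining windows of 500 bp at a Poisson p threshold of 0.001, with no control library in the recorded command. The deposited signal is a tag count for each region after the authors had scaled every library to 10000000 tags. The score deposited by the authors comes from findPeaks and has no unit, and the deposited ratio, a clonal fold change, was not used. Region lengths were also deposited by the authors.

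Gene spans came from a RefSeq table of GRCm38.p6, and promoter windows (250 bases before to 50 after a start) from RefSeq for 68 of 74 genes. H2bc21, H4c14, H2ax, H3c7, H2bc4 and H3c1 were not matched. Covered shares and tags per kb weighted by overlapped bases were computed in Python 3.11.15 with numpy 2.4.6 and pandas 2.3.3. The code was tested on simulated data against a count base by base. Clusters join members less than 500 kb apart. With 1 list per organ no test was made.

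The members, lists and markers were chosen with earlier results of these data known. Named by rule were all single genes, the clustered genes with the 3 highest and 3 lowest covered shares (ties broken by tags per kb), those in the region with the most members in each organ, germ line genes and genes with no region. Other clustered genes were named after their values were seen. Alternatives changed the covered share, the interval, the regions kept and the members.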

Additional observations from a re-analysis of the deposited data

How the results depend on the processing

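Of 140 values recomputed under alternative settings, 128 stayed within 1.5 times the reported value and 12 moved further. The choice of regions moved most. Keeping the upper 50% of each list by score, covered clustered genes fell to 21 in the heart and 13 in the liver, covered single genes to 4 in the heart, 5 in the kidney, 4 in the liver and 2 in the lung, and the regions over clustered genes to 23 in the heart and 9 in the liver. The 87.6 kb region of the liver, over 13 histone genes, has a score of 14.5, higher than 19.8% of the regions of its list, and is lost under this setting. Requiring at least 50% of a gene inside a region left 20 regions in the heart, 13 in the kidney and 19 in the lung, and counting any overlap gave 8 single genes in the lung. Added after seeing the data were the promoter window in place of the span and the clustered genes left out for shared promoter words or length and the single genes left out for germ line expression, and they moved no count by over 1.5 times. Over all settings the covered clustered genes ranged from 21 to 53 in the heart, 35 to 51 in the kidney, 13 to 55 in the liver and 28 to 51 in the lung. Settings with fewer members counted 53 to 60 genes instead of 63, and the 35 in the kidney is out of the 53 on chromosome 13. The median tags per kb of clustered genes ranged from 25.7 to 32.4 in the heart, 26.9 to 27.6 in the kidney, 29.3 to 34.0 in the liver and 24.4 to 26.1 in the lung. No paired analysis was possible because each organ has 1 list, and no replicate could be left out. A gene without a region is one not called at this depth, with no control library.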

Other observations

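Histone genes that the table lists as pseudogenes were not among the 74 genes. H2ac5-ps lies between H3c3 and H2bc3 in the second chromosome 13 cluster and was fully covered in all 4 lists, in the same regions as its neighbours, at 47.4 tags per kb in the heart, 36.7 in the kidney, 38.5 in the liver and 31.3 in the lung. H2ac14 in the first chromosome 13 cluster was fully covered in the heart, to 24.2% in the lung and not at all in the kidney and liver. H1f11-ps on chromosome 19 was covered to 74.1% in the kidney alone. H3f3a-ps1 and H3f3a-ps2, copies of the H3.3 gene outside the clusters, had no region in any list.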
